A study of Arabidopsis thaliana with 16 samples.

Results

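A set of 43 probe sets, out of 22746 tested on the ATH1 array, was higher in ant and in seu ant gynoecia than in wild type while its mean level in seu stayed close to wild type. The members were chosen from the same arrays by their genotype means on the log2 scale: an ant mean of at least 7, ant and seu ant means each at least 0.6 above wild type, and a seu mean within 0.4 of wild type. Because all 4 genotype means were used in this choice, the differences given below describe the members and are not tests of them. The gene tables pair 15 of the 43 with 1 gene each, and 28 are paired with no single gene here. ALC, AT1G29660 and AT1G75890 were set aside by name, of which ALC would have met the limits.

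Gynoecia of floral stages 8 to 10 were dissected by hand from plants of 4 genotypes, grown in 16 h days at 24 degrees C: Col-0 wild type, plants carrying seu-3, plants carrying ant-1, and double mutants carrying both alleles. Each genotype had 4 arrays, and each array was made from 1 pool of 15 to 25 gynoecia, so that the spread between arrays is a spread between pools. Each gene is represented by a single mutant allele, and no further allele or agent is given for any group. The values are MAS5 signals, a brightness per probe set, with values under 16 set to 16 before log2 was taken. In such bulk samples fewer cells of a type and less RNA per cell cannot be told apart.

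AINTEGUMENTA (ANT) encodes an AP2-type transcription factor that prolongs cell proliferation in growing floral organs, and loss of it gives smaller organs and fewer ovules. SEUSS (SEU) encodes a co-regulator without a DNA-binding domain of its own, which joins complexes that repress or activate target genes. Both act in the carpel margin meristem, the tissue along the fused carpel edges from which ovules arise.

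The array medians lay between 153.1 and 188.6 signal units, and between 20.0% and 24.4% of the values on each array sat at the floor of 16. Arrays of 1 genotype correlated with Pearson r between 0.972 and 0.986. The SEU transcript itself was lower than wild type by a log2 difference of -1.72 in seu and -1.82 in seu ant (standard error, SE, 0.17 for both), and by -0.12 in ant. The level of ANT is not analysed here. Of the 11 gynoecium markers listed for this check, 3 had a probe set named here, and the levels of the others were not read. SPT, a bHLH gene of the carpel margin, had a mean log2 signal of 10.20 in wild type, NGA3 had 7.06, and INO, an ovule gene, had 4.18 with 3 of 4 arrays at the floor. Limma called SPT and NGA3 lower in seu ant, by log2 differences of -1.38 (SE 0.19) and -1.68 (SE 0.25), and neither in ant (-0.56 and -0.26) or in seu (-0.65 and -1.03). The 2 tapetum and anther markers with a named probe set summed to between 32 and 70.5 signal units on all arrays, close to the floor. Of the 6 stomatal lineage markers listed, 3 had a named probe set. Their summed signal ranged between 62.0 and 109.4 for wild type and between 105.3 and 160.3 for seu. It ranged between 107.5 and 189.3 for ant, and between 203.3 and 433.7 for seu ant. SPCH differed from wild type by 1.66 in seu and 1.53 in ant, neither called, and was called higher in seu ant (2.61, SE 0.42 for each). FMA and MUTE were called in no mutant, with differences of -0.23 and 0.16 in ant, and MUTE was at the floor on 4 wild-type, 2 seu, 2 ant and 3 seu ant arrays. The trichome list was represented by TRY alone, whose signal was 235.0 to 357.2 on wild-type, 350.0 to 461.6 on seu, 162.3 to 271.9 on ant and 601.4 to 787.9 on seu ant arrays. Their part in the levels of the 43 members was not tested.

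The limits narrowed the array in steps. In ant, 291 probe sets had a mean of at least 7 and lay at least 0.6 above wild type. In 156 of these the seu mean was more than 0.4 above wild type, in 21 it was more than 0.4 below, and in 114 it was within 0.4. Of these 114, 44 were also at least 0.6 above wild type in seu ant. The other probe sets of the 114 kept less of the difference: 53 lay between 0 and 0.6 above wild type in seu ant, and 17 lay below wild type.

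Over the 43 members, the median log2 difference from wild type was 0.79 in ant (range 0.61 to 2.15), 1.001 in seu ant (range 0.61 to 3.09) and 0.14 in seu (range -0.22 to 0.39). Over all 22746 probe sets the medians were -0.02, -0.03 and -0.02. In seu, 34 members lay above wild type and 9 below, whereas 9462 of all probe sets lay above and 12013 below. Of the 15 named members 13 lay above and 2 below. The seu mean was 0.31 to 0.36 above wild type for NDB2, AT1G26190, SOFL1, CYP71B22, AT1G19450 and TBL45, and 0.38 above for RXF26. In ant the 4 arrays lay above all 4 wild-type arrays for 31 members (4.42% of all probe sets do so), and in seu ant likewise for 31 members (8.84% of all probe sets). For 26 members both mutants cleared wild type in this way, so the remaining 17 overlapped wild type in at least 1 of the mutants. The share of all probe sets for which both mutants do so was not counted, and nothing is read from these numbers. The limma fit over all probe sets, calling a probe set where p after Benjamini-Hochberg adjustment was under 0.05 and the log2 difference exceeded 0.35, placed 20 of the 43 among the higher calls in ant, against 1.89% of all probe sets, and 36 higher in seu ant, against 8.30%. These contrasts chose the members, so nothing is read from the counts. In seu limma called 0 of the 43, against 1.27% of all probe sets higher, 0.914% lower and 2.19% in either direction, and 2 were higher at an unadjusted p under 0.05. None of the 43 had an array at the floor.

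**Figure D1:**
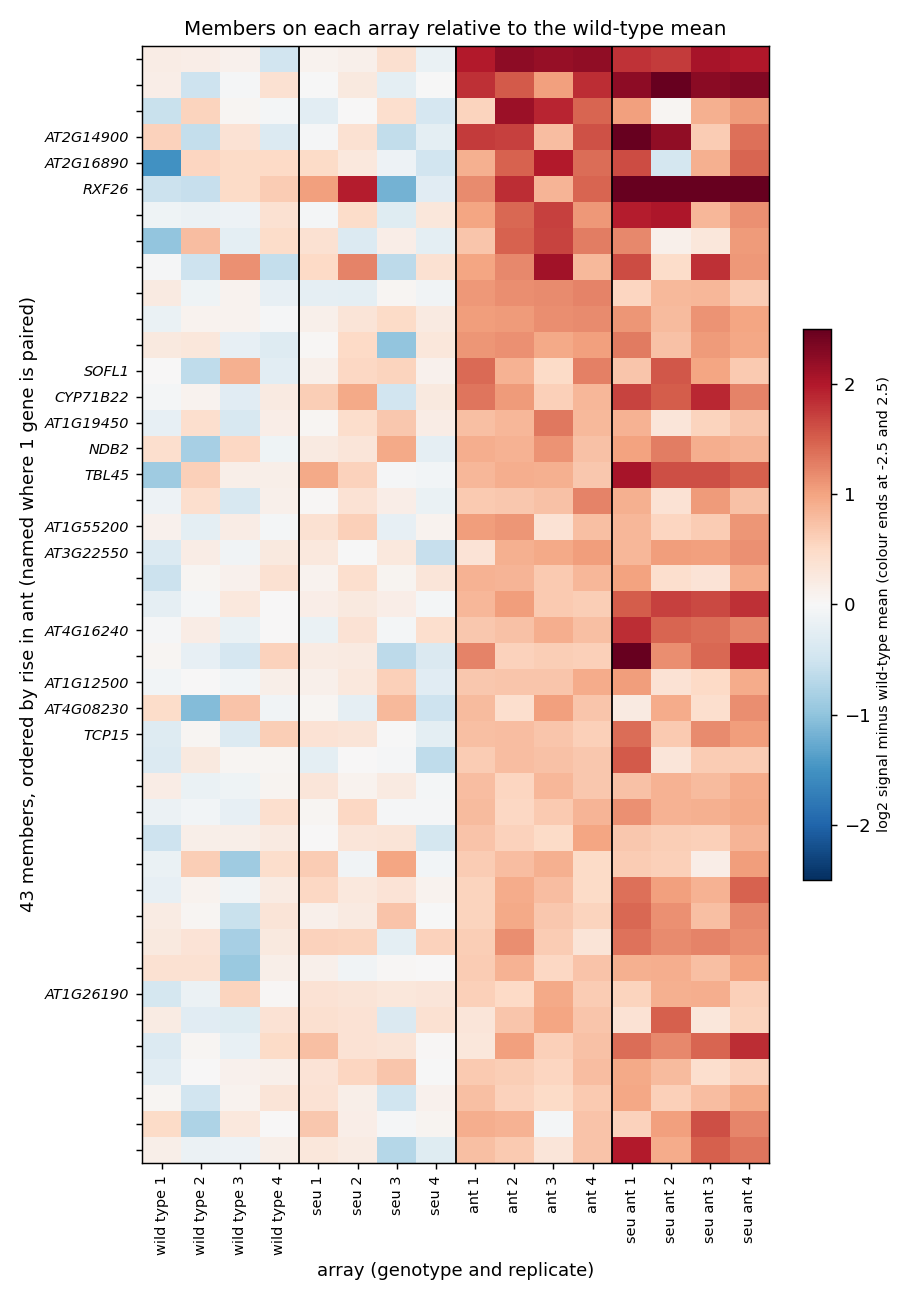
Log2 signal of each of the 43 members (rows, ordered by the difference between ant and wild type) on each of 16 arrays (columns), shown as the difference from that member's wild-type mean. The ant and seu ant columns are red across nearly all rows, from a median of 0.76 to 1.14 per array, while the seu columns are pale and hold single darker cells such as RXF26 on seu replicates 2 and 3.

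Per array, the members' median difference from the wild-type mean was 0.76, 0.87, 0.78 and 0.76 on ant replicates 1 to 4, and 1.14, 0.91, 0.89 and 1.06 on seu ant replicates 1 to 4. On the seu arrays it was 0.20, 0.30, 0.04 and -0.02. All 8 arrays of plants carrying ant-1 lay above all 4 seu arrays in this median, an order that the limits on the genotype means favour. Within the seu group, 32 members were above their own seu mean on replicate 2 and 9 were above it on replicate 4.

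Of the 15 named members, limma called 6 higher in ant, against 1.89% of all probe sets, and 13 higher in seu ant, against 8.30%. The 6 were AT1G19450, AT1G55200, AT3G22550, AT4G16240, AT1G12500 and AT1G26190. AT2G16890 and AT4G08230 were not called in seu ant. The choice used these contrasts, so the counts are descriptive. Regulatory genes come first among the named members. TCP15 encodes a TCP transcription factor of the class that acts in cell division and growth of developing organs. Its log2 signal was 8.50, 8.88, 8.47 and 9.43 on the wild-type arrays and 9.18, 9.15, 8.81 and 8.58 on the seu arrays. In ant it was 9.58, 9.59, 9.51 and 9.41, and in seu ant 10.21, 9.46, 10.01 and 9.87. The ant pools were close together (standard deviation 0.085), whereas wild-type replicate 4 stood inside the ant range. The difference from wild type was 0.70 in ant (SE 0.21) and 1.07 in seu ant (SE 0.21), and 0.11 in seu. Without wild-type replicate 1 or replicate 3 TCP15 no longer met the limits, and its lowest difference in ant was 0.59. TCP24, the other TCP gene with a named probe set and looked at after TCP15 was found, had a difference of -0.11 in ant and -0.60 in seu ant.

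SOFL1 belongs to the SOB FIVE-LIKE genes, a small plant family linked to cytokinin levels. On the wild-type arrays its log2 signal was 6.78, 6.14, 7.67 and 6.50, and on the seu arrays 6.89, 7.28, 7.32 and 6.88. The ant pools gave 8.19, 7.64, 7.24 and 8.04, and the seu ant pools 7.47, 8.32, 7.76 and 7.44. Wild-type replicate 3 was higher than 2 of the 4 seu ant pools and 2 of the 4 ant pools, so the groups overlapped. Its means were 1.01 above wild type in ant and 0.97 above in seu ant (SE 0.31 for both), a 2.01-fold and a 1.96-fold difference. Losing SEU in addition to ANT moved it by -0.03.

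AT2G14900 is annotated as a gibberellin-regulated family gene, a family of small cysteine-rich proteins whose transcripts respond to gibberellin. It had the largest ant difference among the named members, though limma did not call that difference. Its log2 signal was 8.27, 7.09, 8.04 and 7.36 in wild type, 7.67, 8.08, 7.07 and 7.45 in seu, 9.44, 9.40, 8.46 and 9.29 in ant, and 10.25, 9.90, 8.32 and 9.06 in seu ant. All 8 pools carrying ant-1 lay above the other 8 pools, though ant replicate 3 and seu ant replicate 3 were close to wild-type replicate 1. The mean was 1.46 above wild type in ant and 1.69 above in seu ant (SE 0.41 for both), or 2.75-fold and 3.23-fold. The profile most like it over the 16 arrays among the other named members was that of AT1G55200 (Pearson r = 0.83), followed by RXF26 (0.80), AT4G16240 (0.78) and CYP71B22 (0.75). These values share the genotype means that chose the members and are a description only.

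**Figure D2:**
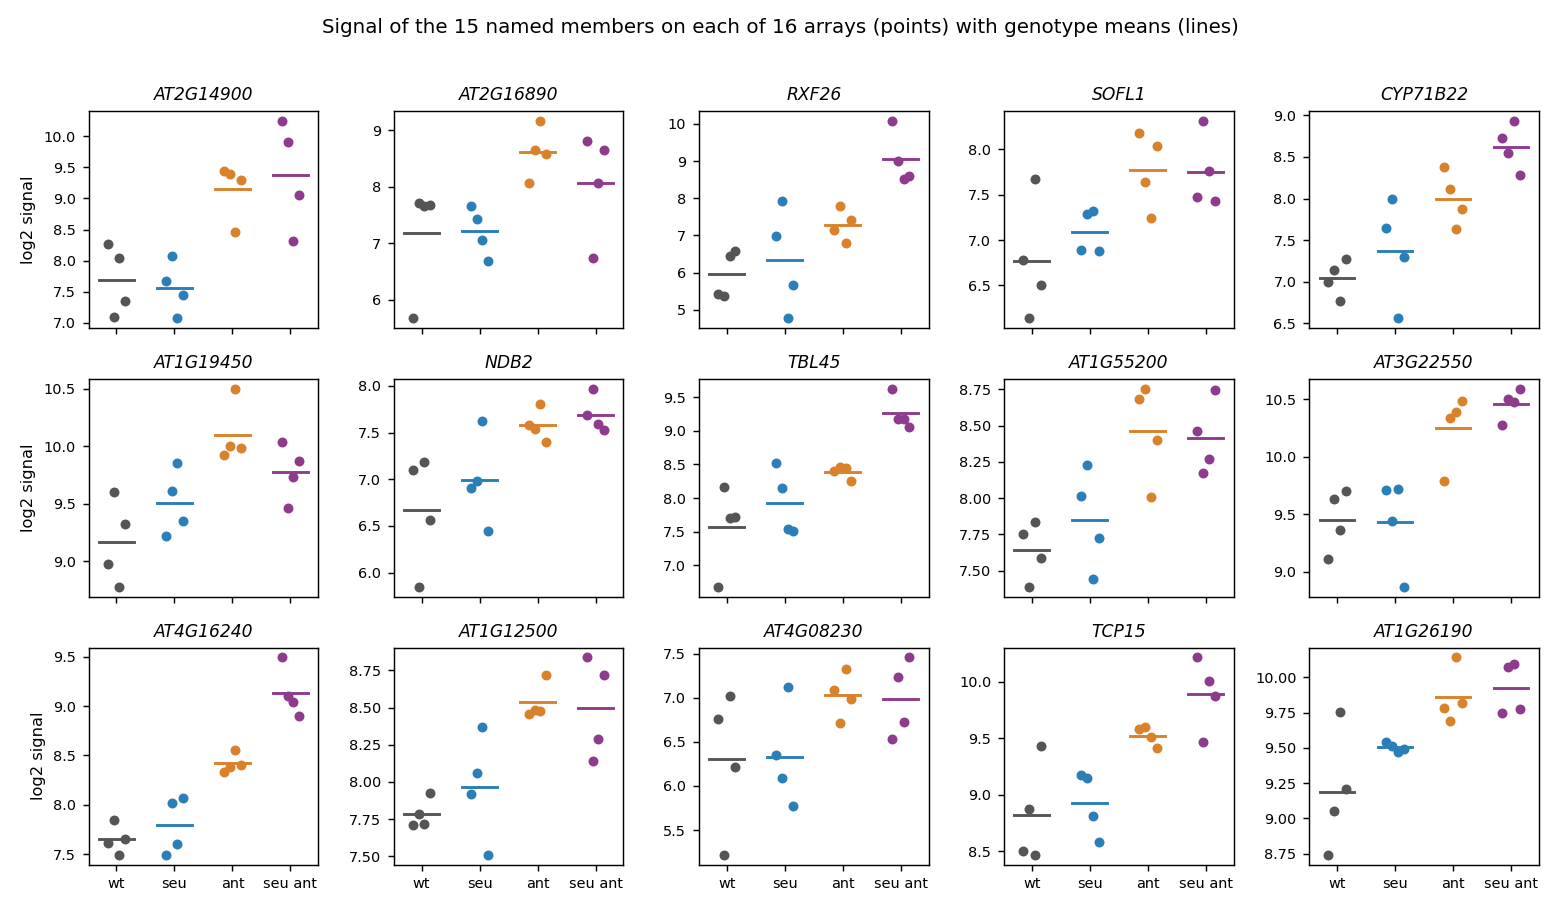
Log2 signal (vertical axes, scaled per gene) of the 15 named members on the 16 arrays, with 1 point per array, a line at the mean of each genotype, and the genotypes wild type (wt), seu, ant and seu ant along the horizontal axes. In 9 of the 15 all ant and all seu ant points lie above all wild-type points, and RXF26, TBL45 and AT4G16240 stand higher in seu ant than on any ant array. Over all probe sets, 4.42% clear wild type in this way in ant and 8.84% in seu ant, and the share in both was not counted. For seu ant above all ant arrays the share is 10.4%. The genotype means shown chose the members, so these counts are a description only.

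Genes annotated for the cell wall, surface and sugar transport followed. TBL45 belongs to the TRICHOME BIREFRINGENCE-LIKE family, whose characterised members add acetyl groups to wall polysaccharides. Its log2 signal was 6.68, 8.17, 7.71 and 7.71 in wild type and 8.51, 8.15, 7.54 and 7.51 in seu. In ant the 4 pools were within a narrow band at 8.41, 8.47, 8.45 and 8.25, and in seu ant they were at 9.62, 9.18, 9.18 and 9.05. Its level thus climbed from wild type to ant to seu ant with no overlap between these 3 genotypes, while 1 seu pool reached above the ant band. The differences were 0.83 in ant, 1.69 in seu ant and 0.87 between seu ant and ant (SE 0.29 for each). The low wild-type replicate 1 carried part of the ant difference, which was 0.53 without it, and TBL45 met the limits again in 10 of the 16 sets that left out 1 array. Among the other TBL genes, examined after TBL45 was found, TBL36 went the opposite way in ant with a difference of -2.26 (SE 0.20) and TBL26 had 0.60 (SE 0.39) in ant and 2.35 in seu ant. Over the 22 TBL genes with a named probe set the median difference in ant was 0.16. None of the named members is among the 29 wall-loosening genes with a named probe set (expansins and xyloglucan endotransglucosylase/hydrolases). Of these 29, limma called 1 higher and 0 lower in ant, and 4 higher and 2 lower in seu ant. Over all probe sets the shares were 1.89% higher and 3.03% lower in ant, and 8.30% and 11.4% in seu ant. In seu 2 of the 29 were called higher and 1 lower, against 1.27% and 0.914%.

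RXF26 is annotated as a carboxylesterase acting on ester bonds. On the wild-type arrays its log2 signal was 5.41, 5.38, 6.44 and 6.58, and in ant it was 7.14, 7.79, 6.80 and 7.41. In seu ant it was 10.08, 8.99, 8.53 and 8.59, above every ant pool. The seu pools were spread over 6.98, 7.91, 4.77 and 5.68, with a standard deviation of 1.39, the widest of any member in any genotype. Its seu mean of 0.38 above wild type was just inside the limit, and without seu replicate 3 or 4, or wild-type replicate 3 or 4, it no longer met the limits. The mean was 2.52-fold wild type in ant and 8.54-fold in seu ant (log2 differences 1.33 and 3.09, SE 0.59). Its seu ant level was 1.76 above ant (SE 0.59), a difference that limma did not call.

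A putative sugar transporter of the cell membranes, AT1G19450, had a log2 signal of 8.98, 9.60, 8.78 and 9.33 in wild type and 9.92, 10.00, 10.50 and 9.98 in ant. In seu ant it was 10.04, 9.47, 9.74 and 9.87, and seu ant replicate 2 lay below wild-type replicate 2. The difference of 0.93 in ant and 0.61 in seu ant (SE 0.20 for both) placed it nearest of all members to the limit on seu ant. AT1G12500, annotated as related to phosphate translocators, which exchange phosphorylated compounds across membranes, had tight wild-type pools at 7.71, 7.79, 7.72 and 7.92. Its ant pools were at 8.46, 8.49, 8.48 and 8.72, and its seu ant pools at 8.84, 8.14, 8.29 and 8.72, all above wild type. The difference was 0.75 in ant and 0.71 in seu ant (SE 0.18), nearly the same in both.

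Oxidising enzymes were also among the members. NDB2 encodes a type of mitochondrial NAD(P)H dehydrogenase that passes electrons to the respiratory chain without pumping protons. Its log2 signal was 7.10, 5.85, 7.19 and 6.56 in wild type and 6.90, 6.98, 7.62 and 6.44 in seu. The ant pools were at 7.58, 7.54, 7.80 and 7.40 and the seu ant pools at 7.69, 7.96, 7.59 and 7.52, so that all 8 exceeded wild type. The means were 0.90 and 1.02 above wild type (SE 0.28 for both). Its relatives did not share this level: NDB1 differed from wild type by 0.03 in ant and 0.01 in seu ant, and NDB3 and NDB4 had low mean log2 signals of 4.87 and 4.12 in wild type, near the floor value of 4.

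CYP71B22 is a cytochrome P450, a class of enzymes that oxidise small molecules in secondary metabolism and hormone pathways. Its log2 signal was 6.99, 7.14, 6.76 and 7.27 in wild type, 8.38, 8.12, 7.63 and 7.87 in ant, and 8.73, 8.55, 8.94 and 8.28 in seu ant. The seu pools at 7.65, 8.00, 6.56 and 7.29 spanned the wild-type and part of the ant range. The differences were 0.96 in ant and 1.58 in seu ant (SE 0.27 for both). Of the 32 cytochrome P450 genes with a named probe set, limma called 0 higher and 1 lower in ant (3 and 4 at an unadjusted p under 0.05), and 5 higher and 1 lower in seu ant. The background was 1.89% higher and 3.03% lower in ant, and 8.30% higher and 11.4% lower in seu ant. Within the CYP71B subfamily, compared after CYP71B22 was found, CYP71B26 and CYP71B6 showed another pattern, with differences of 1.64 and 0.995 in seu, 0.12 and -0.40 in ant, and 3.01 and 2.02 in seu ant.

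The remaining annotated members are of mixed function. AT3G22550, annotated as related to senescence-associated proteins, stood at 9.11, 9.63, 9.36 and 9.70 in wild type, 9.79, 10.34, 10.39 and 10.49 in ant, and 10.28, 10.50, 10.48 and 10.59 in seu ant. Its seu mean was -0.01 from wild type, and it met the limits again whichever array was left out. AT1G26190, also named TTM2, encodes a triphosphate tunnel metalloenzyme. Its seu pools were the closest of any member in any genotype (standard deviation 0.03). Its mean lay 0.32 above wild type in seu, 0.67 above in ant and 0.73 above in seu ant (SE 0.17 for each). Wild-type replicate 3, at 9.75, overlapped both mutants.

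For 4 members with a locus number no function is given in the sources used here. AT2G16890 had a difference of 1.44 in ant and 0.89 in seu ant (SE 0.51 for both), but wild-type replicate 1 stood at 5.67 when the other 3 were between 7.66 and 7.71. Without that array the difference was 0.94 in ant and 0.38 in seu ant, under the limit. AT1G55200 was at 7.64 in wild type, 8.46 in ant and 8.41 in seu ant (standard deviations 0.20, 0.34 and 0.25), and AT4G08230 at 6.30, 7.03 and 6.99 (standard deviations 0.80, 0.25 and 0.43), with wild-type pools that reached into both mutants. Without wild-type replicate 2, the lowest, the differences of AT4G08230 went from 0.73 to 0.37 in ant and from 0.69 to 0.32 in seu ant, under the limits. AT4G16240, read by a probe set of the type that can also bind transcripts of other genes, had means of 7.65 (wild type), 7.80 (seu), 8.42 (ant) and 9.13 (seu ant) (standard deviations 0.14, 0.29, 0.10 and 0.25). No seu ant pool overlapped an ant pool for this gene, and no ant pool overlapped wild type or seu.

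The distance of the seu ant mean from the ant mean varied among the members. Across the 43, the seu ant mean was within 0.4 of the ant mean for 26, more than 0.4 above it for 13 and more than 0.4 below it for 4. The median of the difference between seu ant and ant was 0.11, over a range from -0.76 to 1.76. Limma called 8 members higher in seu ant than in ant, against 9.70% of all probe sets, and 1 lower, against 9.32%. The 8 became 4 without seu ant replicate 1, and 5 without ant replicate 3, ant replicate 4 or seu ant replicate 4, and the 1 lower became 2 without ant replicate 1. All 4 seu ant arrays lay above all 4 ant arrays for 8 members (10.4% of all probe sets). Among the named genes those called were TBL45 and AT4G16240, and RXF26 cleared the ant arrays without being called. For the departure of seu ant from the sum of the seu and ant differences, limma called 1 member higher and 0 lower. Over all 22746 probe sets it called 629 higher and 527 lower. The genotype means behind these counts chose the members, so the counts remain descriptive. For 10 of the 15 named members, among them NDB2, SOFL1, AT1G55200, AT1G12500 and AT1G26190, the ant and seu ant means were within 0.4 of each other, with differences from -0.32 to 0.37.

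**Figure D3:**
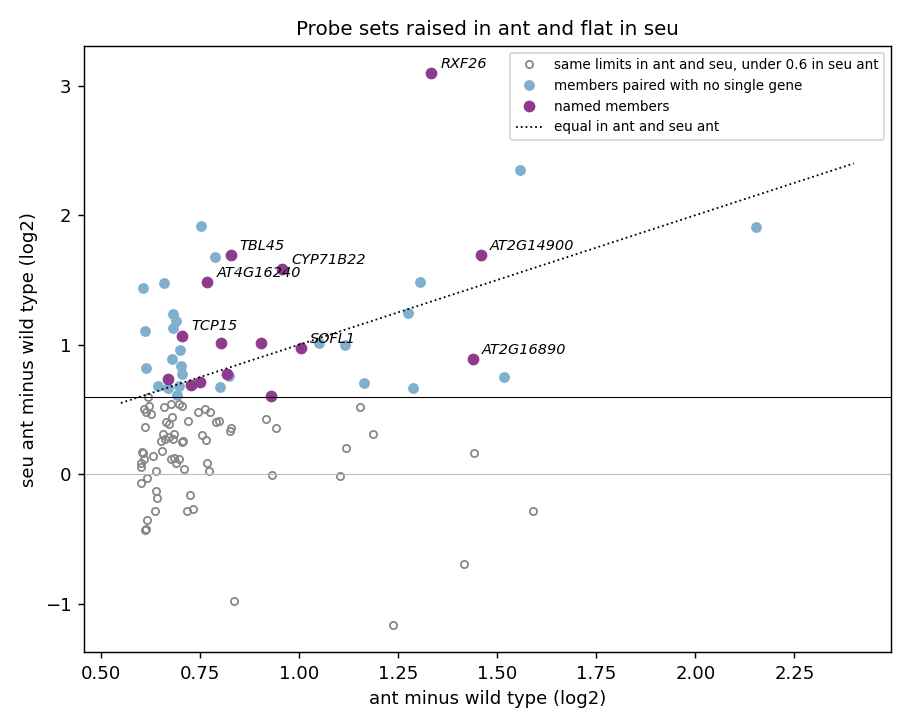
Log2 difference from wild type in ant (horizontal axis) against that in seu ant (vertical axis) for the 43 members, split into 15 named and 28 paired with no single gene, and for 69 further probe sets that met the limits on ant and seu but lay under 0.6 in seu ant (solid line). SOFL1 (1.01 and 0.97) lies close to the dotted line of equal differences, while RXF26 (1.33 and 3.09) and TBL45 (0.83 and 1.69) lie well above it.

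Among the 28 members paired with no single gene, the median difference from wild type was 0.70 in ant and 0.98 in seu ant. For 20 of the 28 all ant arrays were above all wild-type arrays, against 4.42% of all probe sets. The largest difference between ant and wild type in the whole set was in one of them, probe set 256780_at, with a log2 signal of 7.93, 7.90, 7.84 and 7.26 in wild type and 7.82, 7.86, 8.14 and 7.57 in seu. In ant it was 9.72, 9.97, 9.90 and 9.94, and in seu ant 9.55, 9.49, 9.79 and 9.74. Every pool carrying ant-1 was more than 1 log2 unit above every other pool, and the differences were 2.15 and 1.91 (SE 0.15 for both), or 4.45-fold and 3.76-fold. Probe set 252972_at had a mean of 5.74 in both wild type and seu, with 7.30 for ant and 8.09 for seu ant (standard deviations 0.39, 0.20, 0.38 and 0.16), with each step free of overlap between arrays.

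Close to the limits the choice turned on small amounts. AT1G19450 was inside the seu ant limit at 0.61, and AT3G27240 was outside at 0.54. On the limit for ant the nearest members were at 0.61, and AT5G03610 and AT1G06000 were left out at 0.60 and 0.59. RXF26 was inside the seu limit at 0.38, while AT1G28680, AT1G64380 and AT5G17700 were outside at 0.41. AT4G08230, at a mean of 7.03 in ant, was the member nearest to the brightness limit, and AT3G51660, at 6.90, was just below it. Of the probe sets that met the other limits, 329 fell short on the rise in ant, 145 were outside on seu, 69 fell short on seu ant, and 53 were too dim.

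To read the pattern on arrays that had no part in the choice, the limits were applied again with 1 array left out and the left-out array was then compared with the wild-type mean. With an ant array left out, 42 to 53 probe sets were chosen and their median on that array was 0.66 to 0.85 above wild type. With a seu ant array left out, 38 to 46 were chosen and the median was 0.89 to 1.14. On the left-out seu arrays between 22 and 31 of the 38 to 49 chosen probe sets were within 0.4 of wild type. At least 0.6 above wild type were 12 of 49, 9 of 49, 9 of 44 and 1 of 38 on seu replicates 1 to 4. The medians on these seu arrays were 0.28, 0.36, 0.16 and -0.01. Over all probe sets the same medians lay between -0.07 and 0.00. When a wild-type array was left out, the ant mean stood 0.61 to 0.90 above it in the median of the 39 to 49 chosen probe sets. For a left-out mutant array the wild-type mean entered both the choice and the comparison. For a left-out wild-type array the ant mean entered both, so that difference is only in part independent of the choice.

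**Figure D4:**
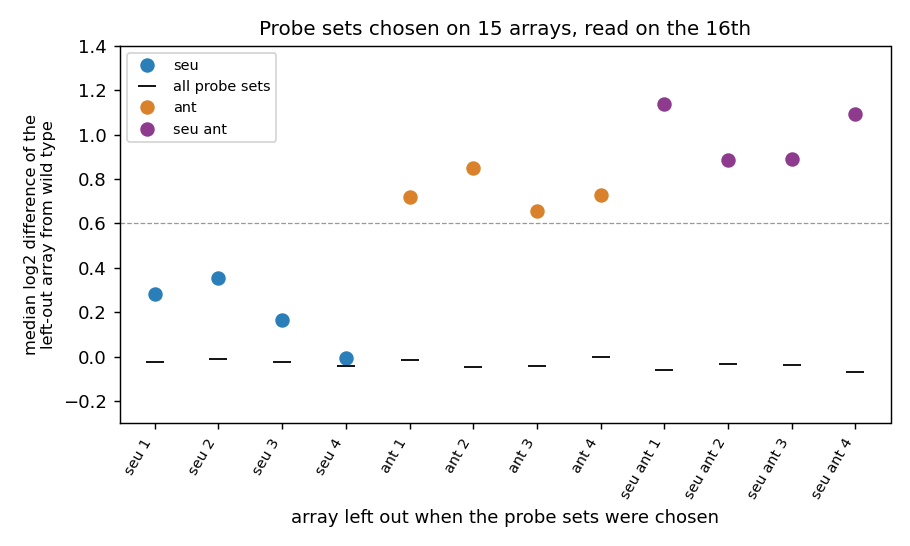
Median log2 difference from the wild-type mean (vertical axis) on the array left out of the choice (horizontal axis) for the probe sets chosen on the other 15 arrays, with points coloured by genotype and short bars for the median of all probe sets. The 4 ant points lie between 0.66 and 0.85 and the 4 seu ant points between 0.89 and 1.14, whereas the seu points lie between -0.01 and 0.36 and the bars stay near 0. The wild-type mean entered both the choice and the comparison, so the points are only in part independent of the choice.

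Membership depended on single pools for many genes. Of the 43, 15 met the limits whichever array was left out, 21 met them in 12 to 15 of the 16 sets, and 7 met them in fewer than 12. The named genes kept in all 16 were AT2G14900, AT1G55200, AT3G22550 and AT4G16240, and those kept least often were AT1G19450 and TBL45, in 10 each. Without wild-type replicate 3 the limits chose 41 probe sets, of which 26 were among the 43, and without wild-type replicate 1 they chose 39, of which 28 were. Leaving out wild-type replicate 1 lowered the number of members called higher in ant from 20 to 7, while the number over all probe sets went from 430 to 214. Without wild-type replicate 3 these numbers were 12 and 308, without ant replicate 2 they were 10 and 289, without ant replicate 3 they were 9 and 245, and without ant replicate 4 they were 12 and 339.

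The choice set limits on genotype means and none on the variation around them, although limits on means can also affect that variation. The Pearson correlation of these deviations over the 16 arrays had a median of 0.10 over the 903 pairs of members, with a range from -0.86 to 0.87. The median standard deviation of the members was 0.36 in wild type and 0.34 in seu, where all probe sets had medians of 0.22 and 0.19. It was 0.21 among ant pools and 0.28 among seu ant pools, where all probe sets had 0.21 in each. The medians of the members were thus higher in wild type, seu and seu ant, and nearly equal in ant. All probe sets include 567 at the floor on every array, which the limit on the ant mean kept out of the members. A mean difference can also pass its limit through 1 outlying pool, so nothing more is read from these medians.

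By chromosome, which was not used in the choice, the 15 named members were 7 on chromosome 1, 3 on chromosome 2, 2 on chromosome 3, 3 on chromosome 4 and 0 on chromosome 5, where 22.2% of all genes with a named probe set lie. Chromosome 1 holds 25.6% of those genes. No named member was within 500 places of ANT or of SEU in the order of annotated genes. Of all genes with a named probe set, 1.89% and 2.11% lie that near, so with 15 members this says little. The 28 members paired with no single gene have no position here. SOFL1 and AT1G26190 are near neighbours, 3 places apart on chromosome 1. Their differences from wild type were 1.01 and 0.67 in ant, and 0.97 and 0.73 in seu ant, and for both wild-type replicate 3 was the highest wild-type pool.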

How the data were processed

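The authors deposited 1 table of MAS5 signal intensities on a linear scale for 16 Affymetrix ATH1 arrays, scaled to a common trimmed mean (494.8 to 496.0 per array). MAS5 is named in the submitters' processing notes, without a version. The number of arrays limits the precision. After 64 AFFX control probe sets were removed, values under 16 were set to 16, log2 was taken, and limma 3.58.1 under R 4.3.3 was fitted to the 22746 probe sets with 1 mean per genotype; Python 3.11.15 and matplotlib 3.10.9 drew the figures. Samples were grouped by the genotype in their labels, which give no batch and no replicate numbers. The replicate numbers used here were assigned within each genotype in the order of the deposited samples. The fit was also run on simulated data with independent normal noise as a check of the code, and nothing about the members is read from that run. Probe sets with every value at the floor (567) were kept, and the prior degrees of freedom were 1.04.

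Genes were named through the platform annotation and RefSeq, or the probe set identifiers of the supplementary table of all probe sets (2 members), and functions from these and from the gene titles in the supplementary tables. Of all probe sets, 13856 name 1 gene. The members and the gene lists were chosen with earlier results of these data known. Named genes are all members that name 1 gene, 2 probe sets without a name, those nearest the limits, and relatives chosen after the members were seen. Promoter motifs were not analysed, since no sequences were used here. Distance to ANT and SEU was counted in gene order, not bases.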

Additional observations from a re-analysis of the deposited data

Results flagged for a closer look

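Within the 60 groups of 4 arrays formed by the 15 named members and 4 genotypes, 4 held an array that stood apart from the other 3, with a gap, as a share of the group's whole range, above Dixon's 95% critical value. Chance marks about 1 in 20 such groups, so this number is near what chance alone gives. AT2G16890 had a log2 signal of 5.667 on wild-type replicate 1, where the other 3 wild-type arrays were between 7.66 and 7.71. AT2G14900 was at 8.463 on ant replicate 3, with the others between 9.29 and 9.44. AT1G19450 was at 10.50 on ant replicate 3, with the others between 9.92 and 10.00. AT1G12500 was at 8.718 on ant replicate 4, with the others between 8.46 and 8.49.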

How the results depend on the processing

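No paired analysis was possible because the labels give no replicate numbers. Centring each array on its median raised the number of probe sets that met the limits from 43 to 74, of which 34 were among the 43, and the number of members called higher in ant from 20 to 33. This scaling moved the median difference between ant and wild type over all probe sets from -0.02 to 0.14, and the calls in ant over all probe sets from 430 higher and 690 lower to 1101 higher and 297 lower (481 and 475 with quantile normalization). A smallest rise of 1 left 8 probe sets and a widest seu difference of 0.2 left 24. With 1 array left out, the limits chose 38 to 53 probe sets; 7 to 22 members were called higher in ant, 31 to 36 higher in seu ant, 0 in seu, and 4 to 10 higher and 1 to 2 lower in seu ant than in ant. The member medians then ranged from 0.77 to 0.86 in ant, 0.953 to 1.015 in seu ant, 0.10 to 0.21 in seu and 0.07 to 0.16 between seu ant and ant. Every other planned setting kept each count within 1.5 times its value. These were quantile normalization, a floor of 32, log2 of signal plus 16, and dim probe sets left out. A variance trend and an ant mean of at least 8 were the others. The members called higher in ant rose from 20 to 30 with dim probe sets left out and to 28 with the variance trend. Medians were computed again only for quantile normalization, the floor of 32 and log2 of signal plus 16. None moved by more than the spread between arrays. The limits on signal mean that 53 probe sets of the same pattern but lower level were not described.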
